A study of Sus scrofa domesticus with 4 samples.

Results

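MYC, KLF4, KLF6, FOS and JUN, 5 genes of the early transcriptional response, were followed through cultures of pig anterior pituitary cells with and without adiponectin. Every probe whose RefSeq accession belongs to one of these genes was taken, which gave 11 probes out of 43603 on the array and 5 genes out of 2422 that could be named. MYC had 3 probes, KLF4 2, KLF6 4, FOS 1 and JUN 1. All 11 were well above background in both channels of all 4 arrays, and all 11 passed the filter on dim probes, so none is missing from what follows. The genes were selected on the treated over control ratios fitted to these same arrays, so those ratios (log2) are given as a description, with a 95% interval and no test.

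The cells came from the pituitaries of 4 mature gilts (Large White x Polish Landrace, 7 to 8 months old) on days 10 to 12 of the oestrous cycle, which one characteristic in the labels calls a period of pregnancy. Dispersed cells attached over 48 h in McCoy's medium with horse and foetal calf serum, nystatin and gentamycin, and both kinds of culture then had 24 h without serum in the presence of bacitracin. Treated cultures also held recombinant human adiponectin at 10 µg/ml, and control cultures held none. RNA of a treated and a control culture shared each of 4 two-colour arrays, with the treated RNA in Cy5 on arrays 1 and 3 and in Cy3 on arrays 2 and 4, per the channel labels. The labelling protocol puts treated RNA in Cy5 throughout, and that reading (the Cy5 reading below) is given for the genes whose sign it turns. No label ties a gilt to an array or states whether the paired RNAs shared a gilt, so errors measure the spread between these 4 arrays, part of which may be technical. In bulk RNA, fewer cells of a type and less RNA per cell cannot be told apart. Of the 7 pituitary hormone genes listed as markers of the gland, 6 were tested.

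These genes encode transcription factors that many cell types switch on within minutes of a growth factor, stress or hormone signal, before new protein is made. FOS and JUN pair through leucine zippers into the AP-1 factor. MYC pairs with MAX and drives growth and ribosome production, and KLF4 and KLF6 are zinc finger proteins that bind GC-rich promoters. The transcripts are short-lived, and in the pituitary FOS and JUN are classical reporters of stimulation by releasing hormones. Exposure to adiponectin lasted 24 h, and earlier times were not sampled.

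In the limma fit, 0 of 25912 probes passed an adjusted p of 0.05 for adiponectin (0% of probes), none of the 11 among them, and 717 probes (2.77%) had an unadjusted p under 0.05, 1.04% with higher and 1.73% with lower signal in treated cells. That count did not stay 0 in the fits without array 2, 3 or 4. Probes of KLF6 (without array 2) and of MYC (without array 4) were among those called. Every fit with 1 array left out had a single array in 1 dye orientation, so its calls are not read. Fitted ratios of treated over control were below 0 for 8 of the 11 probes and above 0 for 3, beside 50.7% of all tested probes above 0. The ratios that stood farthest from 0 belonged to 1 probe of MYC, at -0.33, and 1 probe of KLF6, at 0.35. Neither gene gave 1 answer across its probes. Fold changes are on the scale of normexp-corrected intensity plus an offset of 50.

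MYC was lower in treated cells on most arrays, by an amount that depended on the probe. Probe A_72_P592239 had log2 ratios of -0.10, -0.56, -0.44 and -0.21 on arrays 1 to 4, lower in treated cells on all 4. It was the only one of the 10 probes with 4 values to keep 1 sign on all arrays, a pattern that 5.94% of all such probes showed (2.94% on the lower and 3.01% on the higher side). Its fitted ratio was -0.33 ± 0.086 (SE, n = 4 arrays; 95% interval -0.52 to -0.13), or 0.797-fold.

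Probe A_72_P557580 of MYC had 0.08, -0.31, -0.17 and -0.33, and a fitted ratio of -0.18 ± 0.069 (SE, n = 4; -0.34 to -0.02). The brightest MYC probe, A_72_P165831, had 0.11, -0.17, -0.08 and -0.14, with a fitted ratio of -0.07 ± 0.066 (SE, n = 4; -0.22 to 0.08). On array 1 the ratio was thus above 0 in 2 of the 3 probes, and on arrays 2, 3 and 4 it was below 0 in all 3. The mean of the 3 probes was -0.19. With median centring in place of loess the brightest probe had 0.01 and the other pair -0.10 and -0.25, and under the Cy5 reading of the labelling protocol the brightest probe had 0.09 and the others 0.14 and 0.06.

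KLF4, which restrains proliferation in many epithelia, had fitted ratios near 0 in both probes. Probe A_72_P538303 had 0.26, -0.45, 0.13 and -0.31 on arrays 1 to 4, above 0 where treated RNA was in Cy5 and below 0 where it was in Cy3. Probe A_72_P303164 had the reverse order, with -0.15, 0.02, -0.45 and 0.28. The fitted ratios were -0.09 ± 0.066 (SE, n = 4; -0.25 to 0.06) and -0.07 ± 0.078 (SE, n = 4; -0.25 to 0.11). So the sign on a single array followed the dye in opposite ways for the 2 probes of this gene, and the fitted ratios, with dye as a term, differed by less than their SE. Under the Cy5 reading the ratios would be 0.29 and -0.22.

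**Figure D1:**
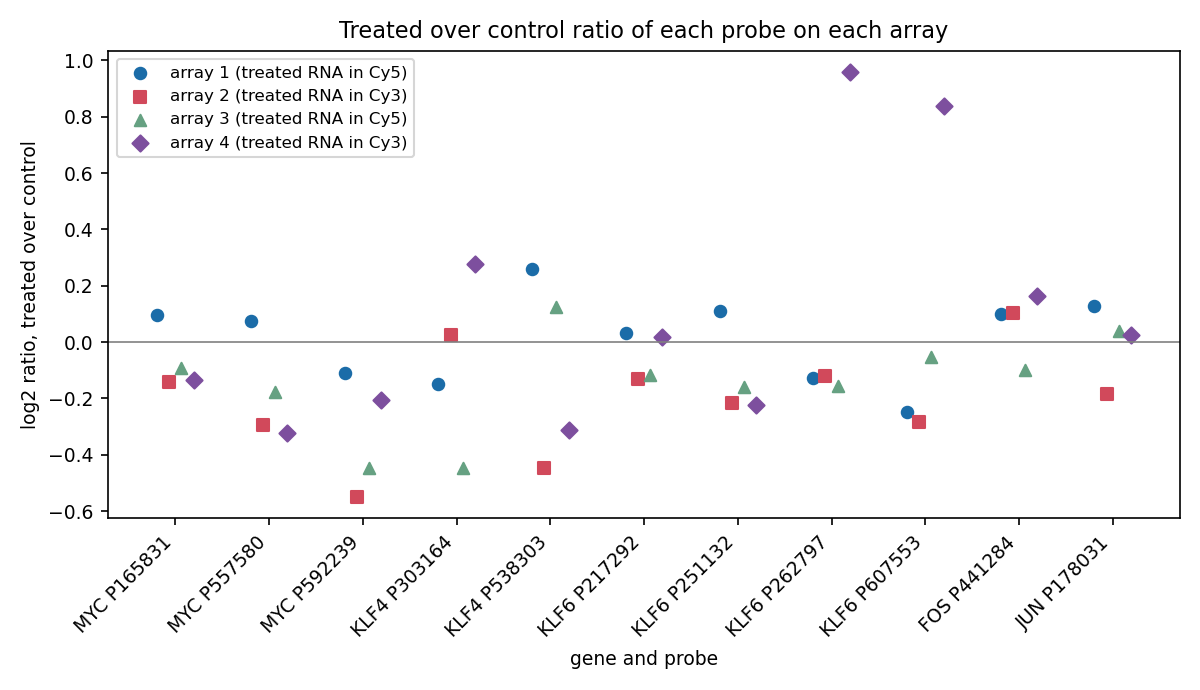
Log2 ratio of treated over control cells (vertical axis) for each of the 11 probes (horizontal axis), 1 symbol per array, with spots of uneven local background kept. Array 4 stands at 0.96 and 0.84 for 2 KLF6 probes, while the other 2 KLF6 probes lie between -0.23 and 0.11 on every array.

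KLF6, a widely expressed factor induced by injury and by growth signals, showed the largest differences between its own probes. Probe A_72_P262797 had ratios of -0.13, -0.12, -0.15 and 0.96 on arrays 1 to 4, so that 3 arrays lay close together and array 4 lay far above them. The brightest probe, A_72_P607553, had -0.21 on array 1, 0.01 on array 3 and 0.80 on array 4, and its spot on array 2 was left out because the scanner software had marked its local background as uneven. The other 2 probes had no such excess on array 4. Probe A_72_P251132 had 0.11, -0.22, -0.15 and -0.23, and probe A_72_P217292 had 0.03, -0.13, -0.12 and 0.02.

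The fitted ratio of the brightest KLF6 probe rested on the missing spot and on array 4. From the 3 arrays it was 0.35 ± 0.088 (SE; 0.14 to 0.55). With the spot on array 2 kept, the 4 ratios were -0.25, -0.28, -0.05 and 0.84, and the fitted ratio was 0.06 ± 0.15 (SE, n = 4; -0.29 to 0.42). Without array 4, and with that spot kept, it was -0.22. In the series matrix, which holds all 4 arrays, it was 0.08. From 3 arrays with median centring it was 0.53. The 3-array fit had array 4 as its only array with treated RNA in Cy3, and arrays 1 and 3 alone gave its residual spread. The fitted ratios of the other probes were 0.14 ± 0.15 (-0.20 to 0.47) for A_72_P262797, which had -0.13 without array 4 and 0.41 without array 2, -0.12 ± 0.070 (-0.28 to 0.04) for A_72_P251132 and -0.05 ± 0.067 (-0.20 to 0.10) for A_72_P217292 (SE, n = 4 each). A_72_P217292 turned to 0.02 with median centring. The mean of the 4 probes was 0.08. Under the Cy5 reading the brightest probe had -0.45, A_72_P262797 -0.28, A_72_P251132 0.10 and A_72_P217292 0.0089.

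The single-channel signals show in which channel array 4 stood apart. On that array control RNA was in Cy5, so culture and dye cannot be told apart there. The values are log2 intensities after loess and quantile normalization of the array averages, with spots of uneven background kept, and they may be compared within a probe only. Control RNA gave 15.32, 15.87, 15.13 and 14.43 on arrays 1 to 4 for A_72_P607553. Treated RNA gave 15.07, 15.59, 15.08 and 15.27 for the same probe. The control on array 4 was thus the lowest of these 8 values, and the treated sample of array 4 lay within the range of the other treated samples.

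The same order held for A_72_P262797, with control values of 10.89, 11.31, 10.89 and 9.88 and treated values of 10.76, 11.19, 10.73 and 10.84. For A_72_P251132 the control values were nearly constant, from 12.22 to 12.25, and treated values ran from 11.99 to 12.35. For A_72_P217292 the control values ran from 11.61 to 11.96 and the treated values from 11.62 to 11.88. Before normalization, the control channel of array 4 read 20938 and 811 for the pair of probes with the excess, against 44274 and 2201 in the treated channel. Neither of these spots was saturated or flagged as an outlier, and they lay apart on the slide, at row 76 and column 33 and at row 312 and column 56. The raw control channel of array 4 was also the lower one for A_72_P251132 (4159 against 4723.5) and A_72_P217292 (2714 against 3700).

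**Figure D2:**
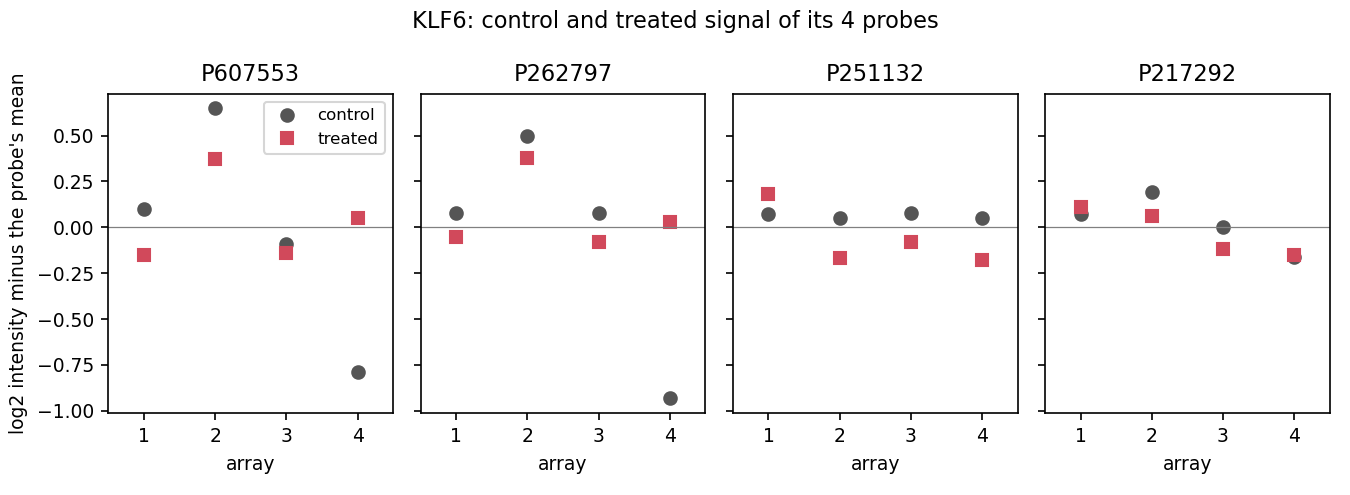
Log2 intensity of the 4 KLF6 probes on arrays 1 to 4, as the difference from each probe's own mean, for control (circles) and treated (squares) RNA. The control of array 4 is low for A_72_P607553 (14.43) and A_72_P262797 (9.88) and not for A_72_P251132, whose control values stay between 12.22 and 12.25.

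Whole profiles over the 8 single-channel values, each centred on its mean, were alike for 2 of the KLF6 probes and flat for the other 2. The root mean square difference was 0.10 (log2) between A_72_P607553 and A_72_P262797, whose own SDs were 0.42 and 0.43. It was 0.13 between A_72_P251132 and A_72_P217292, close to their own SDs of 0.13, so likeness between these flat profiles is not read. Between a probe of the first 2 and a flat one it was between 0.32 and 0.44. The named gene nearest to both A_72_P607553 and A_72_P262797, looked up after their values were seen, was VEGFA, the angiogenic growth factor, at 0.15 and 0.18 among 1934 genes. Its ratios were -0.26, 0.09, -0.14 and 0.53 on arrays 1 to 4, and its control signal was likewise lowest on array 4, with 11.57, 11.77, 11.25 and 10.85. On array 4, 44 of the 25912 tested probes had a higher ratio than A_72_P262797 and 109 a higher ratio than A_72_P607553.

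For markers of other cell types on array 4, the mean log2 signal of the 2 tested of 7 endothelial markers was 7.41 in control and 7.46 in treated RNA. It was 11.46 and 11.49 for 2 of 8 fibroblast and pericyte markers, 8.21 and 8.40 for 3 of 7 macrophage markers, 10.46 and 10.63 for 2 of 6 nervous and posterior lobe markers, and 12.14 and 12.16 for 6 of 7 hormone genes. For 1 of 8 lymphocyte markers it was 6.66 in both, and for 1 of 5 red blood cell markers 6.59 in control and 6.50 in treated RNA. Of the 6 listed folliculostellate cell markers 0 were tested, so that cell type was not assessed on any array. Of the macrophage markers, CD14 had a ratio of 0.36 on that array, AIF1 0.11 and TYROBP 0.10. Their part in the KLF6 values was not tested.

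FOS had ratios of 0.10, 0.10, -0.10 and 0.16 on arrays 1 to 4, above 0 on 3 of them. Its fitted ratio was 0.07 ± 0.067 (SE, n = 4; -0.09 to 0.22), and -0.07 with treated RNA read as Cy5 throughout. JUN had 0.16, -0.25, 0.10 and -0.02, with a fitted ratio of -0.0032 ± 0.068 (SE, n = 4; -0.16 to 0.15). Thus for the AP-1 pair the intervals ran from a fall of about 0.16 to a rise of about 0.22, and values within that span were not resolved by 4 arrays. The sign of JUN turned with the processing: it was 0.03 with normexp fitted on all spots, 0.0026 with an offset of 10, 0.0017 with spots of uneven background kept, 0.09 with median centring, -0.03 in the series matrix and 0.13 with treated RNA read as Cy5 throughout. The setting with normexp fitted on all spots, here and below, also kept spots of uneven background.

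The level of FOS differed far more between arrays than between treated and control cells. Control RNA gave 8.92, 8.98, 9.88 and 9.57 on arrays 1 to 4, and treated RNA gave 9.02, 9.09, 9.78 and 9.73. Both cultures of arrays 3 and 4 were thus above both cultures of arrays 1 and 2. The mean of the 2 channels spanned 0.85 (log2) over the arrays, wider than for 93.2% of tested probes, whose median span was 0.34. JUN, its partner, spanned 0.18, with control values from 14.87 to 15.16 and treated values from 14.91 to 15.13, wider than for 17.5% of probes.

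MYC and KLF4 differed between arrays in the opposite order to FOS. The brightest MYC probe read 13.69, 13.73, 13.17 and 13.02 in control RNA and 13.78, 13.59, 13.08 and 12.88 in treated RNA, a span of 0.79 between array means (above 91.2% of probes). KLF4 read 10.46, 11.03, 9.97 and 10.14 in control RNA and 10.72, 10.58, 10.10 and 9.82 in treated RNA with A_72_P538303, a span of 0.83 (above 92.6% of probes). Its other probe spanned 1.01, and the other MYC probes 0.73 and 0.55. Both genes were therefore higher on arrays 1 and 2 than on arrays 3 and 4 in both cultures, with the exception of MYC probe A_72_P592239. Its values on array 2 were 12.93 in control and 12.38 in treated RNA, below those on array 3 (12.99 and 12.55).

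**Figure D3:**
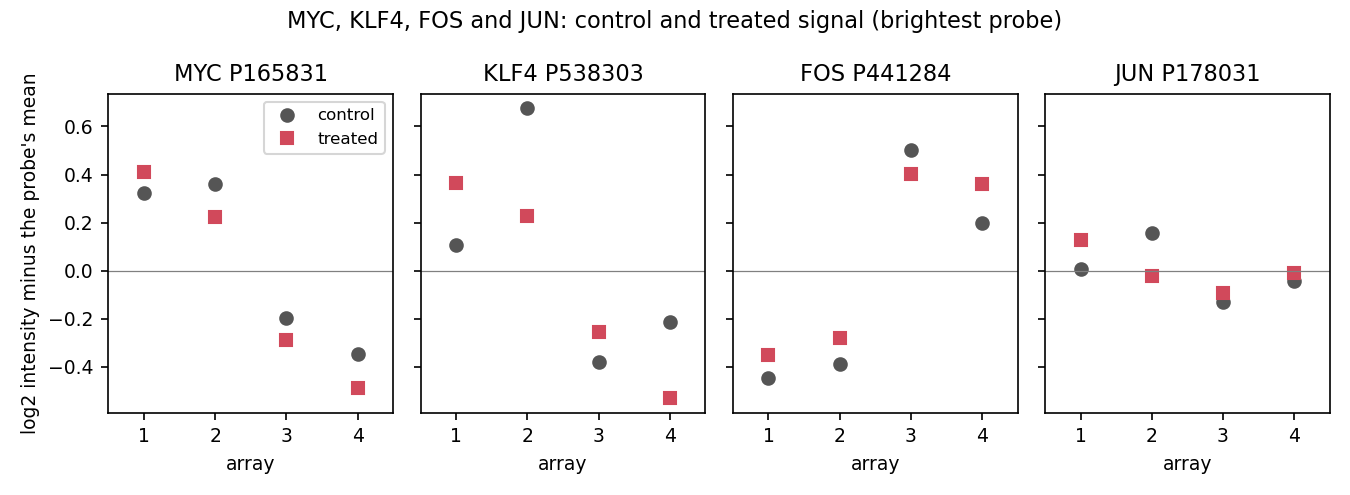
Log2 intensity of the brightest MYC and KLF4 probes and of the FOS and JUN probes on arrays 1 to 4, as the difference from each probe's own mean, for control (circles) and treated (squares) RNA. FOS is high where MYC and KLF4 are low, and JUN spans 0.18 between array means.

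Markers of other cell types also differed between arrays. Control RNA gave mean log2 signals of 9.10, 8.15, 7.63 and 7.41 for the endothelial markers, 8.26, 7.54, 8.12 and 8.21 for the macrophage markers and 12.48, 12.18, 12.81 and 12.14 for the hormone genes on arrays 1 to 4. The endothelial markers had their highest value on array 1 and their lowest on array 4 in both cultures. Their part in the levels of FOS, MYC and KLF4 was not tested, and array, gilt and culture cannot be told apart here.

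Likeness to other genes was measured over the same 8 single-channel values, with spots of uneven background left out, as the root mean square difference of centred profiles among 1886 named genes. The 8 values share arrays and dyes, so the measure is a description. The nearest to the brightest MYC probe were CDC20, a mitotic regulator, at 0.09, PLAT, tissue plasminogen activator, at 0.09 and CDKN3 at 0.10, where the median over all genes was 0.38. With spots of uneven background kept, they were CHGB and ARF4 at 0.08 and CDC20 at 0.09. The other MYC probes then had ATF4, GH1 and CHGB (A_72_P557580) and SLC7A2, EIF4A1 and GNAI3 (A_72_P592239), so the neighbours depended on the probe. The nearest to FOS were SLC9A3R1 at 0.05, FGFR2 at 0.08 and SERPING1 at 0.08 (median 0.41). For KLF4 probe A_72_P538303 they were ADGRE5 at 0.10, CFTR at 0.12 and SLC30A5 at 0.12 (median 0.43). The other KLF4 probe had WHAMM, AHCY and R3HCC1L with spots of uneven background kept. For JUN they were TBRG4, MKNK1 and DCAF11, from 0.03 to 0.05, and for KLF6 probe A_72_P251132 SRC, ACTR3 and RCHY1, from 0.06 to 0.07 (median 0.21 for each), both flat profiles with an SD of 0.13. Between the 5 genes, MYC and KLF4 were 0.15 apart, JUN and KLF6 probe A_72_P251132 0.12, and MYC and FOS 0.71. The brightest KLF6 probe, without a value on array 2, was not among the profiles compared there.

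The dye term of the fit, red over green at equal treatment, was tested. For probes with 4 values the balanced swap keeps its estimate apart from the ratio on which the genes were chosen. For the brightest KLF6 probe, with 3 values, both terms drew on the same array 4 value. Its dye term is therefore not separate from the ratio that chose it. In limma, 1608 of 25912 probes (6.21%) passed an adjusted p of 0.05 for the dye term, 1.92% brighter in red and 4.29% brighter in green. Of the 11, 2 did, the brightest KLF6 probe among them, and only KLF4 probe A_72_P538303 is read as a test. KLF4 probe A_72_P538303 was brighter in red, by 0.29 ± 0.066 (SE, n = 4; limma adjusted p = 0.0436). The brightest KLF6 probe was brighter in green, at -0.45 ± 0.088 (SE, n = 3), and with its spot on array 2 kept it had -0.21 (limma adjusted p = 0.417). KLF4 probe A_72_P303164 had -0.22 ± 0.078 (SE, n = 4; limma adjusted p = 0.121), the opposite sign to the other probe of its gene.

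The KLF4 call did not hold in all settings, and the KLF6 term is given beside it as a description. With median centring the dye count over all probes was 0. The terms were then 0.35 for the KLF4 probe (limma adjusted p = 0.368) and -0.31 for the KLF6 probe. With the scanner software's log ratio they were 0.13 (limma adjusted p = 0.515) and -0.61. With normexp fitted on all spots they were 0.24 and -0.25 (limma adjusted p = 0.0658 and 0.335). That setting also restored the KLF6 spot on array 2, and keeping that spot without the change in normexp gave -0.21. With an offset of 10 the KLF4 term was 0.30 (limma adjusted p = 0.0553). The KLF4 term was 0.25 without array 1 and without array 2, and 0.32 without array 3 and without array 4. Each of these fits left a single array in 1 dye orientation, so whether the call was lost or kept there is not read. If treated RNA were in Cy5 on every array, the dye term would be the treated over control ratio.

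**Figure D4:**
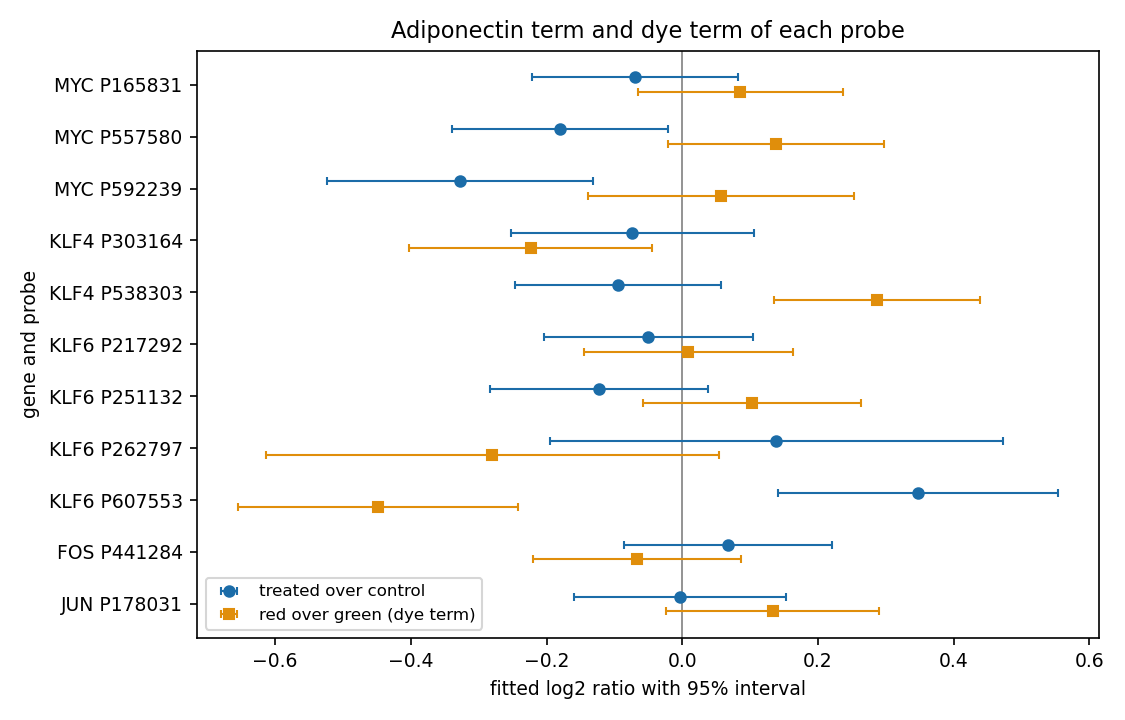
Fitted log2 ratios (horizontal axis) of the 11 probes for treated over control cells (circles) and red over green dye (squares), with 95% intervals of the limma fit. The dye terms of the 2 KLF4 probes lie at 0.29 and -0.22, on opposite sides of 0, and their adiponectin terms at -0.09 and -0.07.

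The other genes of these pathways were taken from lists of relatives, regulators and targets, each represented by its brightest tested probe. In all 7 lists 0 of 44 tested genes passed the threshold in limma (0% of all probes did). An unadjusted limma p under 0.05 was found for 2 of the 44, beside 40 of all 1935 named genes. The lists were chosen with earlier results of these data known, so these counts are a description. The median over all 1935 named genes was 0.0060, with 1039 above and 896 below 0. With median centring, which moved the median of all probes to 0.03, the medians of all 7 lists were above 0, from 0.03 to 0.08.

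In the KLF family, 12 of 17 listed genes were tested, 4 with higher and 8 with lower fitted ratios, and the median was -0.02. The ratios ran from -0.24 for KLF16, whose other probe had -0.02, to 0.08 for KLF1, the erythroid member. KLF16 had -0.05 without array 2 and -0.44 without array 4, and KLF1 turned to -0.06 under the Cy5 reading. Of the AP-1 relatives only ATF4, the stress response factor, was tested, at -0.04, and it had 0.05 with median centring and 0.26 under the Cy5 reading. Its 5 tested probes all had fitted ratios below 0, from -0.10 to -0.02. In the MYC network only BIN1, which binds MYC, was tested, at -0.0095 (0.13 under the Cy5 reading), and its 7 probes took both signs.

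Of 12 tested genes among the other early response genes, 3 had higher and 9 lower fitted ratios, with a median of -0.04. The lowest was RGS2, a brake on G protein signalling, at -0.18 ± 0.086 (SE, n = 4; limma adjusted p = 0.9999), with 0.05, -0.19, -0.44 and -0.16 on arrays 1 to 4. Its ratio was -0.06 without array 3 and -0.31 without array 1. The highest was NFKBIA, the NF-kB inhibitor, at 0.04, which turned to -0.10 without array 4 and was 0.18 without array 2. CYR61, a matricellular signalling gene, spread widely, with 0.54, -0.91, 0.38 and -0.01 and a fitted ratio of 0.00074. The median span of this list between arrays was 0.71 (log2), against 0.37 over all named genes. A wide span was not particular to it, with 1.89 for the AP-1 targets, 1.55 for the endothelial markers and 1.12 for the hormone genes. The KLF family had 0.43 and the MYC targets 0.41.

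Upstream, 4 of 25 listed kinases, growth factors and transcription factors were tested, 3 with higher and 1 with a lower fitted ratio. The growth factor receptor EGFR had -0.19 (-0.39 to 0.01), with -0.07 without array 2 and -0.31 without array 4. Its ligand EGF had 0.04, which turned to -0.09 without array 2. Of the MYC targets 5 of 18 were tested, with a median of -0.0072, from -0.08 for CDK4, the G1 kinase, to 0.07 for CCND2, its cyclin partner. CDK4 had 0.05 without array 3 and 0.09 under the Cy5 reading. Of the AP-1 targets 9 of 12 were tested, 4 with higher and 5 with lower fitted ratios (median -0.02). The pair with an unadjusted p under 0.05 belonged here, the cytokine genes CXCL8 at -0.26 and IL6 at -0.22 (limma adjusted p = 0.9999 for each). By the channel labels IL6 was lower in treated cells on all 4 arrays and CXCL8 on 3 of 4, while under the Cy5 reading IL6 had 0.09 and CXCL8 0.17. Neither kept an unadjusted limma p under 0.05 with median centring (ratios of -0.16 for both). CXCL8 also lost it with normexp fitted on all spots (-0.21), and with the scanner software's log ratio and the series matrix (-0.24 for each). It was lost too for CXCL8 without a dye term (-0.26), and IL6 kept it in all of these. Without array 3 the ratios were -0.18 for CXCL8 and -0.19 for IL6. The other tested IL6 probes had -0.17 and -0.15. The matrix protease gene MMP1 had the highest ratio of this list, at 0.05, from array values of -0.20, 0.81, -0.24 and -0.16, and it had -0.14 with normexp fitted on all spots, -0.19 without array 2 and -0.27 under the Cy5 reading.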

How the data were processed

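The authors scanned the arrays with Agilent Feature Extraction 10.7.3.1 (design 026440), and the deposited intensity values are median foreground and local background per spot, per the file headers. That software also wrote the log10 ratio of red over green found in the deposited files. The values of the authors' series matrix are log2 ratios of treated over control: 99.99% of probes per array lay within 0.01 of the processed signals' ratio taken in that direction. Its columns were left uncentred (array medians -0.04, 0.08, 0.04 and -0.05). Here normexp (offset 50), fitted without spots of uneven local background (939 to 1350 of 43803 per array, left out of the values), was followed by loess with control spots at weight 0 and by Aquantile. Spots with outlier flags (29 to 45 per array) were left out too. No spot was saturated. Probes well above background in the treated or the control channel on at least 3 arrays, with at least 3 values, were tested (25912). limma 3.58.1 in R 4.3.3 fitted a dye and a treatment term, with two-sided p-values adjusted by Benjamini-Hochberg across the whole tested table, and was tested on simulated data. The number of arrays limits the precision. Symbols came by accession from RefSeq on Sscrofa11.1 (5502 of 43603 probes matched, besides 76 with a provisional symbol). Named are all probes of the 5 genes, in each list the highest and lowest ratio and any unadjusted p under 0.05, and the 3 nearest profiles. CYR61 and VEGFA were named after their values were seen, and the macrophage markers were named outside this rule. The genes, lists and settings were chosen with earlier results of these data known.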

Additional observations from a re-analysis of the deposited data

Results flagged for a closer look

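Of 24 probes examined, those of the 5 genes and of the named list genes with spots of uneven background kept, 2 had a single array set well apart. Chance gives that pattern in about 1 of 20 probes taken without regard to their ratios. These probes were chosen on the same ratios, so that rate does not apply and the count is a description. KLF6 probe A_72_P262797 had a ratio of 0.96 on array 4 and between -0.16 and -0.12 on the others. The MMP1 probe had a ratio of 0.81 on array 2 and between -0.24 and -0.16 on the others.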

How the results depend on the processing

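The count of 0 probes for adiponectin stayed 0 in the planned settings with 4 arrays, except with treated RNA read as Cy5 on every array (1608 probes, and 2 of the list genes). Read that way, the brightest probes had 0.086 for MYC, 0.29 for KLF4, -0.45 for KLF6 and -0.067 for FOS. With 1 array left out the counts ran from 0 to 832 for adiponectin, from 56 to 6152 for dye and from 0 to 4 among the list genes. The dye count of 1608 was 845 with normexp fitted on all spots and those of uneven background kept, 0 with median centring and 32 with the scanner software's log ratio. With spots of uneven background kept, a choice added after the data were seen, the ratio of the brightest KLF6 probe ran from -0.22 to 0.34 with 1 array left out. With those spots left out, it could be fitted only without array 2 (0.35). The ratio of MYC probe A_72_P592239 ran from -0.41 to -0.24 with 1 array left out. Ratios with the offset lie nearer 0 for dim probes.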
